A study of Mus musculus with 6 samples.

Results

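The mRNAs of 10 genes tied to the sirtuin SIRT7 or to its partner factors were measured in livers of mice with and without SIRT7. They encode the DNA-binding factors ELK1, ELK4, GABPA and its partner GABPB1, the nucleolar and chromatin proteins UBF (Ubtf), MYBBP1A and SNF2H (Smarca5), the nuclear receptor TR4 (Nr2c2), and 2 products of promoters at which SIRT7 has been reported, NME1 and COPS2. These 10 genes of the 12393 with a probe set of their own were taken by name. The reason was a reported tie to SIRT7, or a place in the family or complex of a factor with such a tie. No rule on their values was used, but the choice was made with earlier results of these data known. All 10 were on the array, with 24 probe sets that carry their symbol and no other, and each gene was represented by its brightest probe set, judged by the mean of the 6 arrays. The comparison set livers labelled SIRT7 knockout (3 samples) against livers labelled wild-type (3 samples), each on its own 1-colour Affymetrix array of total RNA. Strain, age, sex and the way the Sirt7 allele was made were not stated in the labels. Neither do the labels say whether each liver is of another mouse, and the p-values therefore rest on a spread between samples that could be technical.

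SIRT7 is a nuclear, NAD-dependent deacylase that is enriched in the nucleolus and removes an acetyl mark from histone H3 at promoters. It has no known DNA sequence preference of its own, and in human cells ELK4, an ETS factor that also partners with the serum response factor SRF, was reported to bring it to ribosomal protein genes and to genes such as NME1 and COPS2. In the nucleolus it was reported with UBF and MYBBP1A on ribosomal DNA, GABPB1 was reported in mice as a substrate through which it acts on nuclear genes of mitochondria, and in mouse liver it was reported to raise TR4 protein by way of a ubiquitin ligase built on DDB1. Most of these ties concern proteins and their binding, while the arrays measured mRNA.

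The DNA letters that ETS factors read are shown first because the reported route to Nme1 and Cops2 runs through them. Promoter windows of 300 bases, most of them before an annotated start and the last 50 after it, come from RefSeq on build GRCm38.p6 and were found for 10 of the 10 genes. The motifs searched were CCGGAA and the longer CCGGAAG, which contains it, on both strands. At least 1 window of 6 of the 10 genes held CCGGAA, against 32.5% of the 6823 tested genes with a window, and 3 held CCGGAAG, against 20.9%. Over all 27025 genes with a window the shares were 16.7% and 9.93%. Genes with several annotated starts, such as Ubtf with 6 windows, had more chances of a match. No match of these letters was in the windows of Elk1, Ubtf, Mybbp1a or Smarca5. The 300 bases of both reported target promoters are given on the strand of the gene, 5′ to 3′, with CCGGAA or its reverse complement in capitals. The Nme1 window (the more upstream of 2) lies at chr11:93968223-93968522 and the Cops2 window at chr2:125859033-125859332, both on the minus strand.
Nme1 promoter: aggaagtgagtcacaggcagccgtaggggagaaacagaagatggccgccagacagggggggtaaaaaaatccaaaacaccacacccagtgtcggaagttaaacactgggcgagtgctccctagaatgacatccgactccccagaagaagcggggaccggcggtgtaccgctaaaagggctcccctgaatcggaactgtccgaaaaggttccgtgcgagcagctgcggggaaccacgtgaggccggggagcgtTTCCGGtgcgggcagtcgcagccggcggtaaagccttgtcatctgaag
Cops2 promoter: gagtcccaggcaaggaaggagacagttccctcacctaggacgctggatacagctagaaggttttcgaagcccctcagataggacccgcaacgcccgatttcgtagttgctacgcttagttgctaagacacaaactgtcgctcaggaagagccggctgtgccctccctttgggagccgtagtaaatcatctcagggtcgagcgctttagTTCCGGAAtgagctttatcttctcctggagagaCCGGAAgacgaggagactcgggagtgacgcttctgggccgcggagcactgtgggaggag
In Cops2 a pair of overlapping matches on opposite strands began at -42 and -40 relative to the start, and the third, at -9, was part of CCGGAAG. The match of Nme1 began at base 3 of the transcribed part of this window. The other 4 genes with a match are shown as the 30 bases around it, again with the matched letters in capitals, at -68 relative to the start in Elk4, -92 in Gabpa, -72 in Gabpb1 and -232 in Nr2c2.
Elk4 site: ccggcccctcccCCGGAAgtgacgctcgcg
Gabpa site: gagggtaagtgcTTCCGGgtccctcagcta
Gabpb1 site: ccctttctcccgCCGGAAcggggctggggg
Nr2c2 site: caaccgccgtttTTCCGGactaggagggtg
A match describes these letters and is not a measured binding site.

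The Sirt7 probe set was at log2 values of 2.38, 3.11 and 2.86 in the SIRT7 knockout livers and 9.85, 9.80 and 9.57 in the wild-type livers. It followed the labels in all 6 livers, but the 3 knockout values lay under the expression filter of 4, so the size of the difference is not a measured fold. Whether the probes lie in the deleted part of the gene was not tested, so the values do not say how much of any remaining Sirt7 transcript was present. Array medians lay between 5.69 and 5.77, and arrays correlated across genes at 0.962 to 0.984 within a group and 0.949 to 0.979 between groups. Genes with a mean log2 value of at least 4 were tested, 8343 in all, and 2 of them, Sirt7 included, passed an adjusted p of 0.05. Leaving out 1 liver gave 5 (knockout replicate 1), 1 (knockout replicate 2 or 3), 2 (wild-type replicate 1), 7 (wild-type replicate 2) and 38 (wild-type replicate 3).

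The mRNAs of the partner factors and of both reported targets did not differ detectably between SIRT7 knockout and wild-type livers. All 10 were above the expression filter, and limma called 0 of 10 at an adjusted p under 0.05, where 0.024% of all tested genes passed. At an unadjusted p under 0.05 the count was also 0 of 10, against 6.46% of tested genes, and the groups overlapped in all 10, whereas they did not overlap in 9.74% of tested genes. The signs were split, with 5 genes higher and 5 lower in knockout livers and a median difference of -0.024 log2 units, beside -0.032 over all tested genes, of which 45.4% were higher. The median size of the difference was 0.13, and 0.19 over all tested genes. Mybbp1a was the 1 gene of the 10 above that median. On the probe sets that represent the genes, the widest 95% interval, that of Mybbp1a, ran from -1.15 to 0.51. The other 9 lay within -0.69 and 0.82, so that a difference beyond 1.76-fold lay outside the intervals of these 9. On further probe sets above the filter, intervals reached -1.28 (2.43-fold lower) for Nr2c2 (mean 5.19), 0.91 for Nr2c2 (mean 4.11) and -0.84 for Gabpb1. Because the samples are whole liver, fewer cells of a type and less RNA per cell cannot be told apart in any of these values. With 3 samples against 3, an exact permutation test of a single gene cannot give a p under 0.1, so only the fit over all genes was used.

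**Figure D1:**
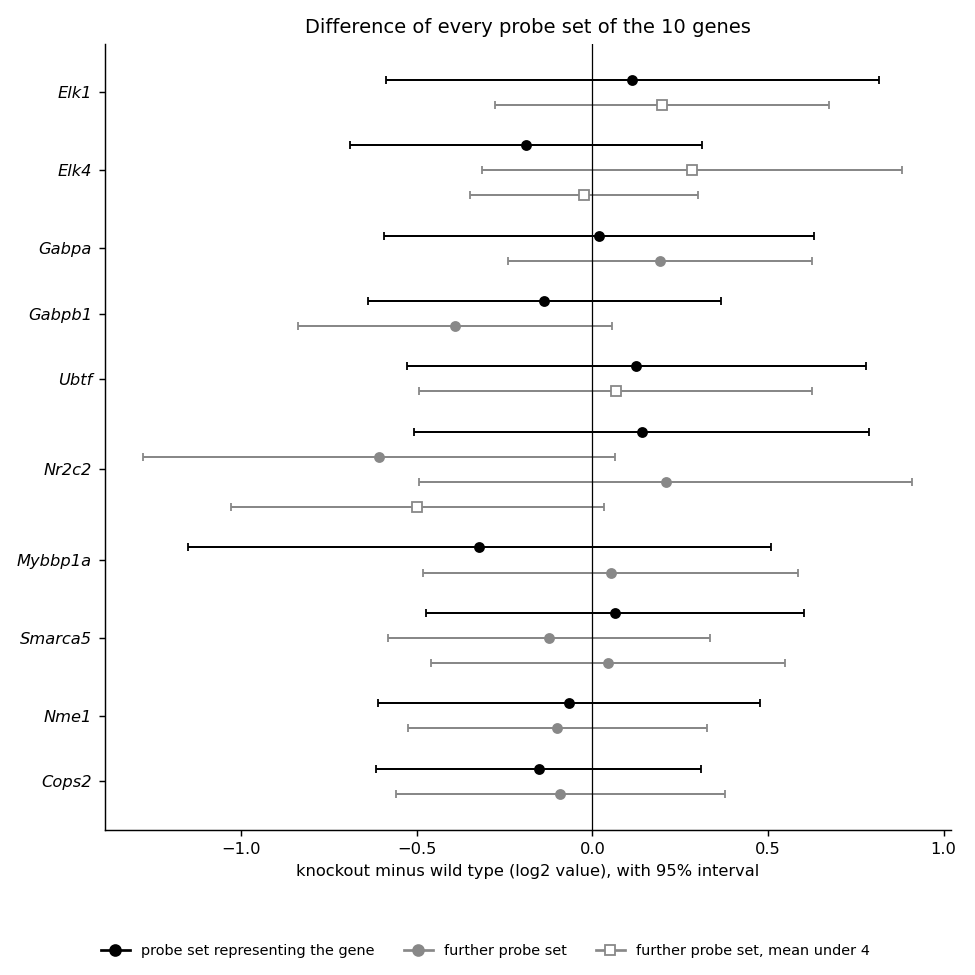
Differences between SIRT7 knockout and wild-type livers (log2 units, x axis) for each of the 24 probe sets of the 10 genes (rows), with limma's 95% intervals as bars. Black points are the probe sets that represent the genes, grey points further probe sets, and open squares further probe sets with a mean under 4; every interval spans 0.

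Among the ETS factors, Elk4 was measured at 10.89, 11.20 and 11.55 in the knockout livers and 11.23, 11.53 and 11.44 in the wild-type livers. The knockout livers held both the lowest and the highest value, and the difference was -0.19 (SE 0.22, 95% interval -0.69 to 0.31, limma adjusted p = 0.868). The 2 further probe sets of the gene were under the expression filter, at means of 3.12 and 2.14, and differed by 0.28 and -0.023. Elk1, another member of the subfamily that works with SRF and a target of MAP kinases, was at 6.88, 5.89 and 6.09 in knockout livers and 5.81, 6.11 and 6.61 in wild-type livers. Knockout replicate 1 was highest and wild-type replicate 1 lowest, and the difference of 0.11 (SE 0.31, adjusted p = 0.958) was smaller than the SD within either group (0.52 in knockout and 0.40 in wild type, n = 3 each).

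GABPA binds DNA through its ETS domain, and GABPB1 supplies the activating part of the complex. Gabpa was at 9.35, 9.34 and 8.44 in knockout livers and 9.12, 9.04 and 8.92 in wild-type livers. Knockout replicate 3 lay below all 5 other livers, the 2 other knockout livers lay above every wild-type liver, and the difference was 0.019 (SE 0.27, limma adjusted p = 0.992). A further Gabpa probe set, with no such low value in knockout replicate 3 (7.37, 7.19 and 7.07 in knockout, 7.17, 6.90 and 6.99 in wild type), differed by 0.19 (SE 0.19, adjusted p = 0.849). Gabpb1 was at 8.40, 8.64 and 8.83 in knockout livers and 9.10, 8.59 and 8.59 in wild-type livers, a difference of -0.14 (SE 0.22, adjusted p = 0.902) in which a single wild-type liver stood above the rest. On its dimmer probe set every knockout value (5.54, 5.49 and 5.77) was under every wild-type value (5.83, 5.96 and 6.20). The difference there was -0.39 (SE 0.20, 95% interval -0.84 to 0.056), with an adjusted p of 0.809 in the limma fit over all probe sets.

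**Figure D2:**
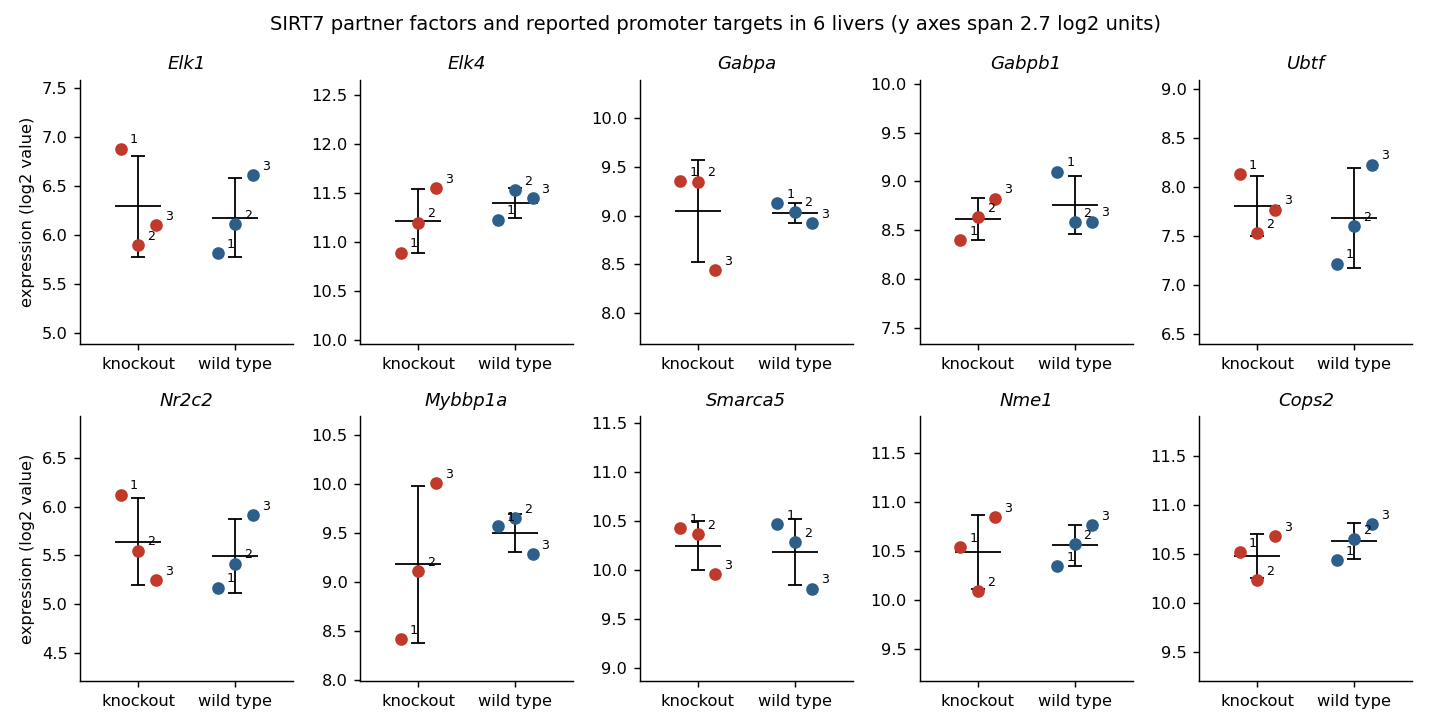
Expression (log2 value, y axis) of the 10 genes in SIRT7 knockout livers (red, left) and wild-type livers (blue, right), 1 panel per gene on the probe set with the highest mean; numbers are replicates, horizontal lines the means and bars the SD over 3 livers. The groups overlap in every panel, and Mybbp1a and Gabpa spread more among the knockout livers (SD 0.80 and 0.52) than among the wild-type livers (0.19 and 0.10).

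Of the nucleolar and chromatin partners, Mybbp1a showed the largest difference. MYBBP1A is a nucleolar protein that binds MYB and takes part in ribosomal RNA synthesis and processing. Its mRNA was at 8.41, 9.11 and 10.01 in knockout livers and 9.56, 9.65 and 9.28 in wild-type livers. The knockout values spanned 1.59 log2 units and enclosed the wild-type values, so that the difference of -0.32 (SE 0.36, 95% interval -1.15 to 0.51, limma adjusted p = 0.863) rested on single livers. Without knockout replicate 1 it was 0.059, and without knockout replicate 3 it was -0.74 (adjusted p = 0.279). A second probe set differed by 0.052 (SE 0.24) and held its lowest value in the same liver, knockout replicate 1.

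Ubtf encodes UBF, which bends ribosomal DNA and opens it to RNA polymerase I. Its mRNA was at 8.13, 7.52 and 7.77 in knockout livers and 7.22, 7.60 and 8.22 in wild-type livers. Both the lowest and the highest value were in wild-type livers, and the difference was 0.13 (SE 0.29, limma adjusted p = 0.941). Smarca5 encodes SNF2H, the ATPase of the ISWI remodelling complexes. It was at 10.42, 10.36 and 9.96 in knockout livers and 10.46, 10.28 and 9.80 in wild-type livers, with the knockout values inside the range of the wild-type values and a difference of 0.064 (SE 0.24, adjusted p = 0.968). Its further probe sets differed by -0.12 (SE 0.20) and 0.045 (SE 0.22).

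Nr2c2, the gene of the orphan nuclear receptor TR4, which controls lipid and glucose genes in liver, was at 6.12, 5.55 and 5.25 in knockout livers and 5.17, 5.42 and 5.91 in wild-type livers. The difference on this probe set was 0.14 (SE 0.28, limma adjusted p = 0.927). Its 4 probe sets did not show one pattern over the livers. The brightest and another with a mean of 4.11, which the platform annotation ties to the same source sequence, were both highest in knockout replicate 1 and differed by 0.14 and 0.21. The probe sets with means of 5.19 and 3.42 (the dimmer under the expression filter) were both lowest in knockout replicate 1 and differed by -0.61 (SE 0.30, 95% interval -1.28 to 0.066, adjusted p = 0.809) and -0.50 (SE 0.23). Values of the brighter of this pair were 4.45, 4.93 and 5.29 in knockout livers and 5.39, 5.998 and 5.10 in wild-type livers, and the groups overlapped through wild-type replicate 3. On the dimmer one the groups did not overlap, though knockout replicate 3 (3.543) and wild-type replicate 3 (3.544) were almost equal. Which transcripts of Nr2c2 each probe set matches was not tested.

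**Figure D3:**
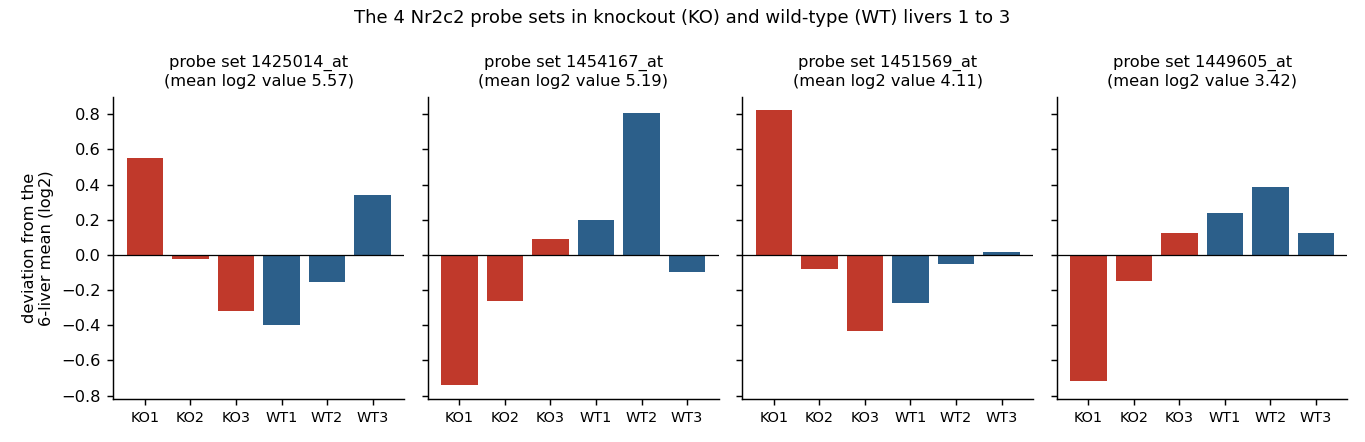
Deviation of each liver from the 6-liver mean (log2 units, y axis) for the 4 Nr2c2 probe sets, with SIRT7 knockout livers in red and wild-type livers in blue (x axis). Knockout replicate 1 is highest in the panels with means of 5.57 and 4.11 and lowest in those with means of 5.19 and 3.42.

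The reported promoter targets come next, whose windows are printed above. Nme1 encodes a nucleoside diphosphate kinase known as a metastasis suppressor. Its mRNA was at 10.53, 10.09 and 10.84 in knockout livers and 10.34, 10.56 and 10.76 in wild-type livers. The wild-type values lay inside the knockout range, and the difference was -0.067 (SE 0.24, 95% interval -0.61 to 0.48, limma adjusted p = 0.967). A second Nme1 probe set, of a type whose probes may also match other transcripts, differed by -0.099 (SE 0.19). Cops2 encodes a subunit of the COP9 signalosome, which removes NEDD8 from cullin ubiquitin ligases. It was at 10.52, 10.24 and 10.68 in knockout livers and 10.44, 10.65 and 10.81 in wild-type livers. The difference was -0.15 (SE 0.20, 95% interval -0.62 to 0.31, adjusted p = 0.879), and the second probe set, at 9.85, 9.69 and 9.30 in knockout and 9.73, 9.71 and 9.66 in wild type, differed by -0.091 (SE 0.21). Of the 10 genes Cops2 had the smallest residual SD, 0.21. Its difference was below 0 in every alternative run, but it was -0.031 without knockout replicate 2 and -0.34 with array weights (adjusted p = 0.0962). With array weights the difference of Nme1 was -0.38 (adjusted p = 0.116). That fit called 1748 of the 8343 tested genes. Its largest weight, 6.12, was on knockout replicate 2, the lowest liver for both Nme1 and Cops2. On the brighter and the dimmer Cops2 probe set, the interval bounds were 1.53-fold and 1.47-fold lower and 1.24-fold and 1.30-fold higher. For Nme1 they were 1.53-fold and 1.44-fold lower and 1.39-fold and 1.25-fold higher.

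Rps7, Rps20 and Rps14 encode proteins of the small ribosomal subunit and belong to the same reported target group. Rps7 was at 11.46, 11.67 and 12.35 in knockout livers and 12.10, 12.53 and 12.42 in wild-type livers, a difference of -0.52 (SE 0.26, limma adjusted p = 0.780) that was -0.17 on a second probe set. Rps20 was at 12.61, 12.71 and 12.80 in knockout livers and 12.91, 12.95 and 12.99 in wild-type livers. The groups did not overlap, but the difference was -0.25 (SE 0.17, adjusted p = 0.801), and it was -0.0033 on another bright probe set. Rps14 differed by 0.24 (SE 0.20, adjusted p = 0.833), and by 0.050 on another bright probe set. The Rps20 and Rps14 probe sets are of the type that may match near-identical copies, and their values are uncertain to that extent. Of the 5 reported targets, 4 were lower and 1 was higher in knockout livers, with 0 called. Over all tested genes, 45.4% were higher and 0.024% were called.

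The values of the 10 genes varied among livers of the same group. Knockout replicate 1 held the highest or lowest value in 6 of the 10 genes, and in 49.7% of all tested genes, while the other livers did so in 25.6% to 34.5% of tested genes. It was the highest in Elk1, Gabpa and Nr2c2 and the lowest in Elk4, Gabpb1 and Mybbp1a. Knockout replicate 2 was the highest in 0 of the genes and the lowest in 2, Nme1 and Cops2. The SD was larger in knockout than in wild-type livers in 7 of the 10 genes, and in 59.6% of all tested genes. Elk1, Ubtf and Nr2c2 shared an order that was noticed after their values were seen: knockout replicate 1 and wild-type replicate 3 were the highest livers and wild-type replicate 1 the lowest, as in 4.08% of tested genes. Without wild-type replicate 3 the differences were 0.33 for Elk1, 0.40 for Ubtf (adjusted p = 0.578, the smallest of the 10 in that fit) and 0.35 for Nr2c2. In the same gene order they were -0.18, -0.036 and -0.10 without knockout replicate 1, and -0.069, -0.11 and -0.024 without wild-type replicate 1. The order of the livers fixes the direction of each of these shifts, so they add nothing to it. With 1 liver left out, 0 of the 10 genes passed in each of the 6 fits, and Mybbp1a without knockout replicate 3 was the 1 case with an unadjusted p under 0.05.

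**Figure D4:**
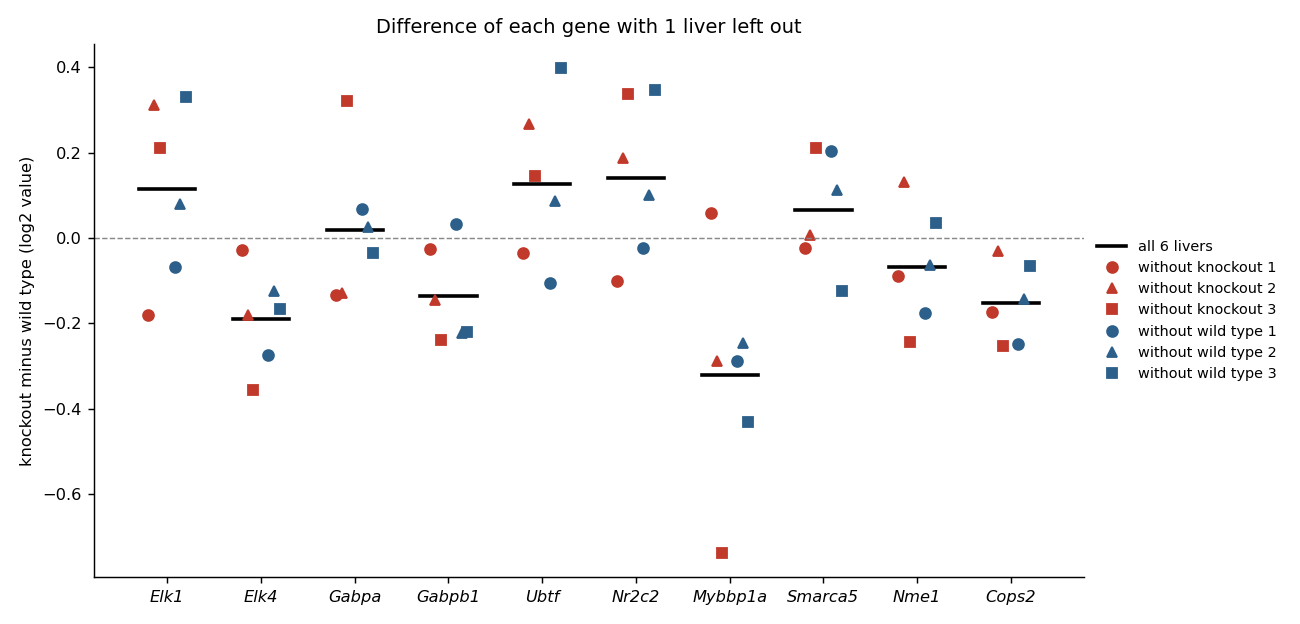
Difference between SIRT7 knockout and wild-type livers (log2 units, y axis) of each gene (x axis) with all 6 livers (black lines) and with 1 liver left out (red, a knockout liver; blue, a wild-type liver). The sign depends on single livers in 8 genes, while Elk4 and Cops2 stay below 0 in all 6 fits.

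Genes that work with these factors were described from lists of the pathway, of which limma called 0 members over all genes in each of the 9 lists. The list of SRF, the partner of the ELK factors, and of immediate early genes in general had 14 tested members of 23. Of these 11 were higher and 3 lower in knockout livers, with a median difference of 0.20, which lay between 0.040 (wild-type replicate 3 left out) and 0.24, and at 0.11 with knockout replicate 1 left out. At an unadjusted p under 0.05 there was 1 higher and 0 lower, where 3.04% of tested genes were higher and 3.42% lower. That gene was Egr1, a growth-induced zinc finger factor, at 10.20, 11.23 and 11.53 in knockout livers and 10.07, 9.17 and 10.12 in wild-type livers. Its groups did not overlap, and it differed by 1.20 (SE 0.39, 2.30-fold, limma adjusted p = 0.746). Ier2 differed by 0.59 (SE 0.27) and Klf6 by 0.70 (SE 0.33), while Srf itself differed by -0.066 (SE 0.26) and Fos by -0.38 (SE 0.33). Cell cycle genes were higher in 27 of 29 tested members (median 0.99, 17 at an unadjusted p under 0.05, 0 called). Their mean deviations were 0.48, 0.60 and 0.49 in knockout livers and -0.84, -1.06 and 0.33 in wild-type livers. The part of proliferation in the immediate early values was not tested.

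The other ETS factors had 11 tested members of 23, 7 higher and 4 lower, with a median of 0.031 and 0 at an unadjusted p under 0.05. The median was 0.21 without knockout replicate 3 and between -0.011 and 0.016 when any 1 of the other livers was left out. Erf, a repressor of the family, differed by 0.81 (SE 0.47) and was, like Elk1, highest in knockout replicate 1 and lowest in wild-type replicate 1. GABP partners and targets in mitochondrial gene control gave 5 higher and 5 lower of 10 tested, with a median of -0.13 that was -0.011 with knockout replicate 1 left out, -0.077 with wild-type replicate 2 left out and -0.20 with knockout replicate 3 left out. Nrf1, the gene of nuclear respiratory factor 1, was at 5.28, 5.50 and 5.56 in knockout livers and 5.06, 5.02 and 5.03 in wild-type livers, with no overlap. It differed by 0.41 (SE 0.18, limma adjusted p = 0.772), and by 0.25 and -0.10 on its further probe sets. Cox5b, a subunit of cytochrome oxidase, and Tfb1m, a mitochondrial ribosomal RNA methyltransferase, differed by -0.40 (SE 0.24) and -0.39 (SE 0.24). Further bright Cox5b probe sets differed by -0.34, -0.23 and 0.0063. A dimmer Cox5b probe set (mean 5.53) differed by -0.15, and another under the expression filter by 0.047. The second Tfb1m probe set (mean 7.54) differed by -0.014.

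RNA polymerase I and its factors, with which UBF acts, had 8 higher and 7 lower of 15 tested members and a median of 0.0027. The median was 0.17 without knockout replicate 3, 0.11 without knockout replicate 1 and -0.035 without wild-type replicate 1. Taf1d, a subunit of the promoter factor SL1, was the 1 member at an unadjusted p under 0.05. It was at 7.41, 7.68 and 7.19 in knockout livers and 7.04, 6.84 and 6.96 in wild-type livers, a difference of 0.48 (SE 0.20, limma adjusted p = 0.769) that ranged from -0.036 to 0.46 on further probe sets. Partners of SNF2H and MYBBP1A in the ISWI and B-WICH chromatin complexes gave 6 higher and 6 lower of 12, within -0.29 and 0.27, with a median between -0.059 and 0.045 without 1 liver. For TR4 the list held its partner genes, the DDB1 ligase and reported lipid targets, with 9 of 10 tested members higher but a median of 0.038 and none above 0.23. The median was 0.14 without knockout replicate 1 or wild-type replicate 1 and 0.12 without knockout replicate 3. Its ligase genes Ddb1 and Cul4b differed by 0.23 (SE 0.23) and 0.21 (SE 0.20), and Cul4b by -0.13 on another probe set. The lipid targets Cidea and Cidec were under the filter, while the other lipid genes of the list were tested and lay between -0.064 and 0.23. COP9 signalosome subunits other than Cops2 gave 4 higher and 4 lower of 8, with Cops7b at 0.39 (SE 0.21) and Cops7a at -0.32 (SE 0.20), Cops7a turning to 0.42 on a dimmer probe set. The median of the list lay between -0.10 and 0.066 without 1 liver, and that of the other Nme genes between -0.088 and 0.12. Of the Nme family, 1 of 4 tested members was higher, Nme4 at 0.53 (SE 0.33), and Nme2, the closest relative of Nme1, differed by -0.097 (SE 0.18).

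**Figure D5:**
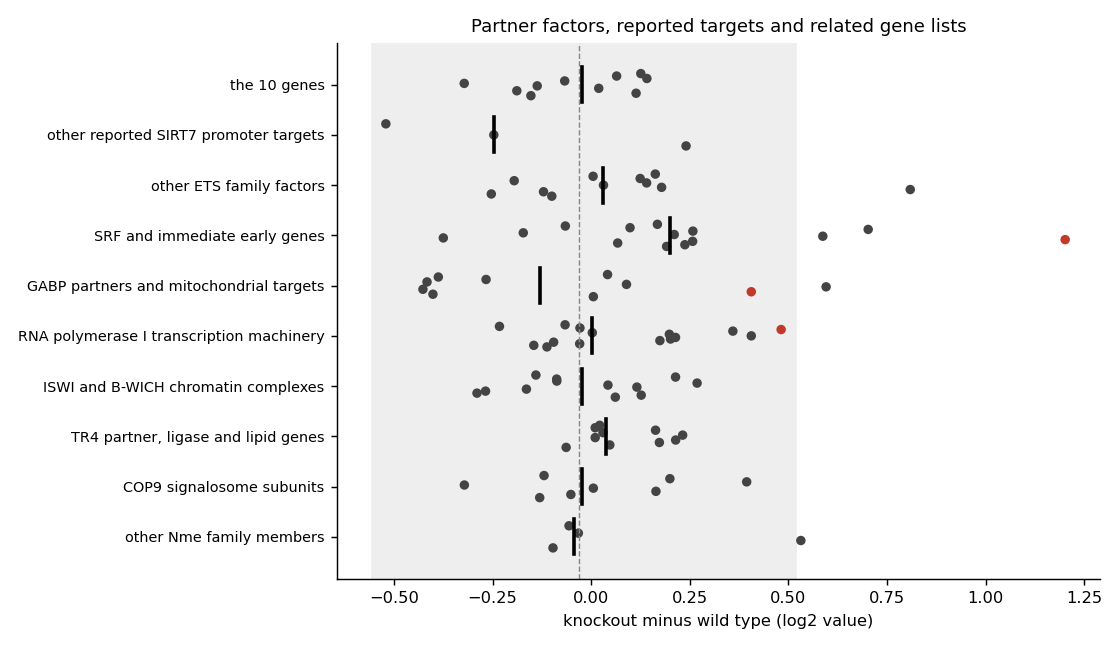
Differences between SIRT7 knockout and wild-type livers (log2 units, x axis) of the tested genes (points) in the 10 genes and 9 related lists (rows), with medians as black bars. Red points have an unadjusted p under 0.05, the dashed line is the median of all tested genes (-0.032), and the grey band holds the 5th to 95th percentile of all tested genes (-0.56 to 0.52); the 10 genes lie inside the band.

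Markers of the cell types that a liver sample can hold were checked beside these values. Hepatocyte markers had 3 of 7 tested members higher in knockout livers and a log2 summed level of 15.40 to 15.82 in knockout and 15.54 to 15.75 in wild-type livers. Kupffer cell and macrophage markers had 5 of 7 higher (11.75 to 12.18 in knockout, 12.06 to 12.24 in wild type), sinusoidal endothelial markers 5 of 7 (11.54 to 11.65 in knockout, 11.62 to 11.67 in wild type) and stellate cell markers 3 of 7 (11.41 to 11.73 in knockout, 11.45 to 11.71 in wild type). Lymphocyte markers had 4 of 7 higher (8.70 to 9.99 in knockout, 8.74 to 9.50 in wild type) and neutrophil markers 2 of 2 (9.002 to 10.39 in knockout, 8.77 to 9.59 in wild type). Cholangiocyte markers had 1 of 3 higher (6.07 to 6.42 in knockout, 6.32 to 6.77 in wild type) and erythroid markers 1 of 3 (9.70 to 10.58 in knockout, 10.16 to 10.45 in wild type). The defining markers Cd3g, Nkg7, Elane, Mpo, Epcam, Cftr and Hba-a1 were under the filter. At an unadjusted p under 0.05, 1 Kupffer cell and macrophage marker and 1 erythroid marker were higher. At that level 1 stellate cell marker and 1 cholangiocyte marker were lower. Over all tested genes 3.04% were higher and 3.42% lower. None of the markers was called, where 0.024% of tested genes were, and their part in the members' values was not tested.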

How the data were processed

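Liver RNA of 3 SIRT7 knockout and 3 wild-type samples was measured on 1-colour Affymetrix arrays. The authors deposited 1 log2 expression value per probe set and array, and the submitters' processing notes name GCRMA 2.20.0 and R 2.11.1, with no settings; the log2 scale was read from the range of 0.841 to 13.969. Because GCRMA removes a modelled background, differences of dim probe sets are less certain, and the number of arrays limits the precision.

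Samples were grouped by their titles, and gene names came from GEO's platform annotation, in which 20380 of 22626 probe sets carry 1 symbol. For each of 12393 genes the probe set with the highest mean was used, and 8343 genes with a mean of at least 4 were compared in limma (version 3.58.1, under R 4.3.3; functions lmFit and eBayes, 2-sided, no replicate block), with Benjamini-Hochberg adjustment over all of them and 95% confidence intervals. Further probe sets were taken from a fit over all probe sets with 1 symbol and a mean of at least 4, and those under 4 from a fit without that filter. The steps were tested on simulated data. The 10 genes and the lists were chosen with earlier results of these data known. All 10 genes, Sirt7, Rps7, Rps20, Rps14 and, of each pathway list, the 3 tested genes with the smallest unadjusted p could be named. Srf, Fos, Cidea and Cidec were named outside that rule, after their values were seen. Tried as alternatives were other filters, quantile normalization, array weights, a replicate block, the mean of probe sets, a trended robust prior and each liver left out. Promoter windows came from RefSeq.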

Additional observations from a re-analysis of the deposited data

How the results depend on the processing

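No member was called (0 of 10) in any fit: without the filter on dim genes, with a filter at 6 (which leaves out Nr2c2), under quantile normalization, array weights, a replicate block, the mean of probe sets, a trended robust prior, or without 1 liver. Sirt7, whose knockout values are under the filter, passed in each (adjusted p 0.0015 with the replicate block), a comparison with dim values that supports no other result. The replicate block gave 2 called genes, as without it. The labels do not say whether replicate numbers pair the samples. Same-numbered deviations from group means correlated at -0.089, -0.091 and -0.19, which cannot show whether samples were paired. Over all genes, 1748 were called with array weights, which lay between 0.31 and 6.12 with the highest for knockout replicate 2, and 1 with the mean of probe sets; the cause was not tested. Without 1 liver the number ranged from 1 to 38. Of 143 alternative values of the 10 genes, 118 kept their sign and 25 turned it, and Cops2 kept its sign in all 14. Signs turned with array weights for Elk1 (-0.12) and Ubtf (-0.0061), while Nme1 (-0.38, adjusted p 0.116), Cops2 (-0.34), Mybbp1a (-0.49, adjusted p 0.0969) and Gabpa (0.26) lay further from 0 with them. Signs turned with the mean of probe sets for Elk4 (0.024), Nr2c2 (-0.19) and Smarca5 (-0.0047). They turned on further probe sets of Elk4 (0.28), Nr2c2 (-0.61 and -0.50), Mybbp1a (0.052) and Smarca5 (-0.12). Without 1 liver the differences ranged from -0.18 to 0.33 for Elk1, -0.13 to 0.32 for Gabpa, -0.24 to 0.033 for Gabpb1, -0.11 to 0.40 for Ubtf, -0.10 to 0.35 for Nr2c2, -0.74 to 0.059 for Mybbp1a, -0.12 to 0.21 for Smarca5, -0.24 to 0.13 for Nme1, -0.36 to -0.029 for Elk4 and -0.25 to -0.031 for Cops2. The smallest adjusted p of a member in these alternatives was 0.0962 (Cops2, array weights). List medians without 1 liver were added after the data were seen.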
